A study of Homo sapiens with 9 samples.

Results

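IFIT1, IFIT2, IFIT3, IFIT5, OAS1, OAS2, OAS3, OASL, IFI44 and IFI44L are 10 antiviral genes of 3 families that interferon switches on. They were picked by symbol from a table of 25382 genes, and all 10 were among the 14731 genes that passed a filter on low counts. Their mRNA was measured in 501mel, an established human melanoma cell line, 24 h after lipofection with a DsiRNA, a synthetic double-stranded RNA that the enzyme Dicer cuts into a silencing guide. The series concerns TBX3, a T-box transcription factor, in pigment cells, and the comparisons ask what changes when TBX3 is knocked down. The 3 groups were cells given DsiRNA 13.6 against TBX3, cells given DsiRNA 13.8 against TBX3, and cells given the control DsiRNA NC1, each with 3 libraries that the labels call biological replicates. All groups share the cell line, the 24 h harvest and a lipofected double-stranded RNA, the control group included, and libraries from untransfected cells are not analysed here. The knockdown was made in 1 cell line only, and the sequences of the DsiRNAs are not printed here.

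Interferon acts on receptors that activate JAK kinases, which drive a complex that contains STAT2 and IRF9 to a DNA word in promoters called the interferon-stimulated response element. The IFIT proteins bind viral RNA or translation factors and block translation, the OAS enzymes sense double-stranded RNA and make 2-5A, a small signalling molecule of the antiviral response, and IFI44 and IFI44L are cytoplasmic proteins of less settled function. These genes are usually low in resting cells, and melanocytes and melanoma cells are known to switch them on after interferon or double-stranded RNA.

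The libraries held between 38105026 and 52272147 counted reads, so that 1 read equals 0.019 to 0.026 CPM, a counts-per-million value scaled by the library total and a TMM factor. TBX3 itself lay at 39.4 to 46.4 CPM in the 13.6 libraries and 33.7 to 36.2 CPM in the 13.8 libraries, against 83.8 to 88.6 CPM in the control libraries (log2 fold changes −1.02 ± 0.07 with 13.6 and −1.27 ± 0.07 with 13.8). Melanocyte markers were present in every library: the summed level of 6 melanocyte markers, PMEL the highest, was 11120 to 12209 CPM with 13.6 and 9552 to 10102 CPM with 13.8, against 9873 to 11600 CPM in controls. PMEL makes up most of that sum, and single markers moved: 2 rose and 2 fell with 13.6, and 2 rose and 3 fell with 13.8. MITF had log2 fold changes of −0.04 ± 0.11 with 13.6, not called, and −0.97 ± 0.11 with 13.8, TYR 1.09 ± 0.07 and 0.84 ± 0.07, and DCT −0.49 ± 0.10 and 0.64 ± 0.10, and the part of these changes in the results on the 10 genes was not tested. Of 8 leukocyte and plasmacytoid dendritic cell markers, summed levels were 0.550 to 0.7998 CPM with 13.6 and 0.455 to 0.690 CPM with 13.8, against 0.572 to 0.736 CPM in controls, and IL3RA had 0 reads; of the 2 that could be tested, ITGAM fell with 13.8. Of 3 keratinocyte markers, KRT5 and KRT14 had 0 and 1 reads in all 9 libraries, and KRT10 carried the sum, at 42.8 to 44.4 CPM with 13.6 and 39.2 to 44.3 CPM with 13.8, against 41.0 to 46.2 CPM in controls, with no call. The 4 endothelial markers summed to at most 1.23 CPM in any library; of the 2 that could be tested, VWF fell with 13.6 (−1.46 ± 0.44), and 0 were called with 13.8. Throughout, levels are mean ± SD over n = 3 libraries, log2 fold changes are estimate ± SE, and "rose", "fell", "higher" and "lower" as calls mean that the quasi-likelihood test of edgeR gave a p under 0.05 after Benjamini-Hochberg adjustment over all genes tested. In RNA from a whole culture, more cells that express a gene and more RNA per cell cannot be told apart.

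With DsiRNA 13.6, 8 of the 10 genes rose against control and 0 fell. Of all genes tested, 49.9% were called in either direction, 24.9% higher and 25% lower. The genes that rose are IFIT1, IFIT2, IFIT3, IFIT5, OAS1, OAS3, IFI44 and IFI44L, and in each of these 8 the 13.6 libraries did not overlap the control libraries, as in 56% of all genes tested. OAS2 and OASL were not called. The rise was at least 2-fold in 6 of the genes, against 586 of all genes tested (3.98%). IFI44L is among both the 8 and the 6, and it passed the filter on low counts through its knockdown libraries alone. The median log2 fold change of the 10 genes was 1.67, beside −0.00896 over all genes tested.

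With DsiRNA 13.8, 8 of the 10 genes rose against control, 1 fell and 1 was not called. Of all genes tested, 55.5% were called in either direction, 27.5% higher and 27.9% lower. OASL joined the genes that rose, OAS3 fell, and OAS2 was again not called. The 13.8 libraries did not overlap the control libraries in 9 of the 10 genes, beside 59.1% of all genes tested. The rise was at least 2-fold in 7 genes, against 1103 of all genes tested (7.49%), and the median log2 fold change was 2.38, beside 0.0126 over all genes. IFI44L and OASL are among both the 8 and the 7, and they passed the filter on low counts through their knockdown libraries. Fibroblast markers moved in the same comparison: 5 of 5 tested rose with 13.8 and 0 of 5 with 13.6, and the summed level of 6 such markers was 4.56 to 5.35 CPM with 13.6 and 15.8 to 18.7 CPM with 13.8, against 4.84 to 6.19 CPM in controls. COL1A2, a fibrillar collagen, had a log2 fold change of 2.58 ± 0.37 with 13.8, LUM one of 1.81 ± 0.15 and DCN one of 1.86 ± 0.55, and the part of these marker changes in the result was not tested. Both DsiRNAs are compared with the same 3 control libraries, so the 2 sets of changes are not independent of each other.

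Between the DsiRNAs, 6 of the 10 genes differed. Of all genes tested, 61.1% were called between 13.6 and 13.8, 30.9% higher with 13.6 and 30.2% lower. OAS1 and OAS3 were higher with 13.6 than with 13.8, whereas IFIT1, IFIT3, OASL and IFI44 were lower with 13.6. In these 6 genes the libraries of the 2 DsiRNAs did not overlap, beside 68.8% of all genes tested, so neither count of 6 of 10 stands above the share over all genes. IFIT2, IFIT5, OAS2 and IFI44L were not called, and their libraries overlapped. The median log2 difference of the 10 genes, 13.6 minus 13.8, was −0.24, beside −0.02 over all genes.

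**Figure D1:**
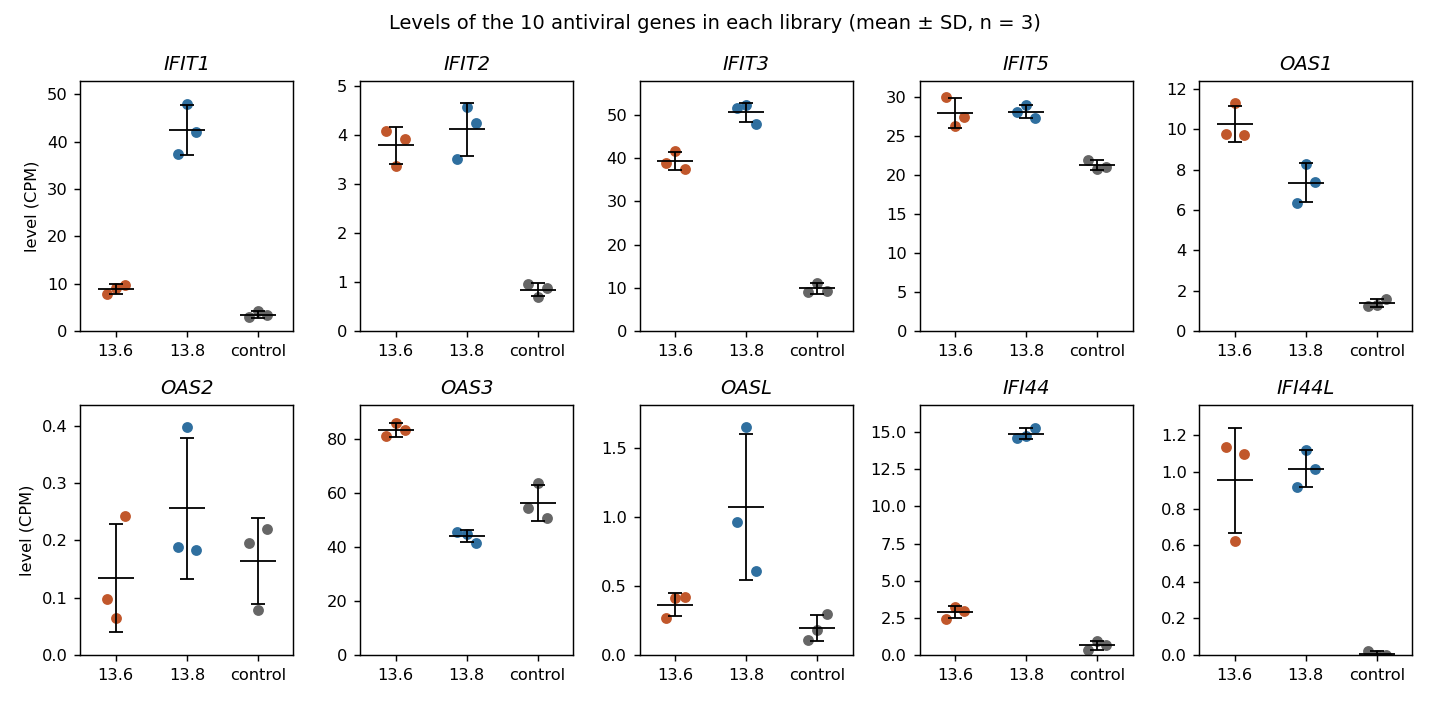
Level in CPM (vertical axes, each starting at 0 with its own scale) of each of the 10 genes in the 13.6, 13.8 and control libraries; points are libraries, and the horizontal line with bars is the mean ± SD (n = 3). IFIT1 and IFI44 stand highest in the 13.8 libraries, OAS1 and OAS3 in the 13.6 libraries, and OAS3 is the gene whose 13.8 libraries lie below the control libraries.

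The promoters of the 10 genes were read for the interferon-stimulated response element. The genes were picked as genes that interferon switches on, so a high share with this element follows from that choice. The share is thus a description and not a result of the knockdown. RefSeq promoters of build GRCh38.p14, running from 250 bases before to 50 after a start, were at hand for 7 of the 10 genes and 9 starts, since IFIT3 and IFI44 each have 2. The word searched was TTTCNNTTTC, or GAAANNGAAA on the other strand, where N is any base. It stood in 8 of the 9 windows, those of 6 of the 7 genes, beside 3.57% of all 35116 promoters of that length. The 2 windows of IFI44 overlap and hold the same match, so that site is counted in both. The exception was OAS1, whose window holds the same half-sites 1 base apart (GAAANGAAA, or TTTCNTTTC on the other strand). That closer spacing was searched after OAS1 had shown no match, and stood in 5 of the 9 windows and 3.12% of all promoters. With either spacing the share was 9 of 9 windows, beside 6.4% of all. A match is a description of the letters, and binding was not measured. The stretches with the matches are shown here because they carry the known control element of these genes. All lie on the plus strand, and capitals mark the match.
IFIT1, chr10:89392487-89392549: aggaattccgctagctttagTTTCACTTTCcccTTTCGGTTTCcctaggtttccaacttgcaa
IFIT3, upstream start, chr10:89327821-89327904: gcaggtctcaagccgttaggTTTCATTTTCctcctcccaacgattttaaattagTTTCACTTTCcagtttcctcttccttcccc
IFIT3, downstream start, chr10:89332415-89332507: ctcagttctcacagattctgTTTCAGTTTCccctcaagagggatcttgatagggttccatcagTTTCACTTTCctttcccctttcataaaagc
IFIT5, chr10:89414503-89414593: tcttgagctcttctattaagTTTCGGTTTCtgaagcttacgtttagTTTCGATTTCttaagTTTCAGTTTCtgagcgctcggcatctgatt
OAS1, chr12:112906925-112906973: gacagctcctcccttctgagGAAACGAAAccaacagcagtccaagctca
OAS3, farther match, chr12:112938311-112938360: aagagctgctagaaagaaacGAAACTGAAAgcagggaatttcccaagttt
OAS3, nearer match, chr12:112938442-112938491: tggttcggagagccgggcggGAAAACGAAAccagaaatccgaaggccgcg
IFI44, chr1:78649751-78649800: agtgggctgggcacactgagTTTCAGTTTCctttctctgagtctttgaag
IFI44L, chr1:78620264-78620404: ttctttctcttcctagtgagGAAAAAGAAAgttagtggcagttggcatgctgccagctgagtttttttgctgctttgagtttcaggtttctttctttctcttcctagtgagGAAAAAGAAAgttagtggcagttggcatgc
IFIT1 holds 2 matches that begin 116 and 103 bases before its start. IFIT5 holds 3 matches, the nearest beginning 4 bases before the start, the shortest distance among these genes. IFI44L holds 2 copies of the same word 91 bases apart, inside a repeat in which 85 bases in a row are identical between the copies. OAS3, the gene that fell with 13.8, holds 2 matches, so the word was present both in genes that rose and in the one that fell. The T-box element AGGTGTGA, or TCACACCT on the other strand, stood in 0 of the 9 windows, beside 0.98% of all promoters. For so rare a word, 0 of 9 windows would be usual for any 9 promoters, so no conclusion about TBX3 is drawn from it. Matches of the 2 spacings can overlap, as they do in the farther stretch of OAS3, and the end of the T-box word can run into the start of either. The letters say nothing of factors that bind elsewhere.

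Among the IFIT genes all 4 rose with both DsiRNAs, by folds that ran from 1.31 for IFIT5 to 12.1 for IFIT1. IFIT1 recognises viral mRNA whose cap lacks a methyl group and keeps it from being translated. It measured 7.78, 9.14 and 9.72 CPM in the 13.6 libraries and 37.4, 48.0 and 42.1 CPM in the 13.8 libraries, against 2.90, 4.24 and 3.42 CPM in the control libraries. All 6 knockdown libraries lay above the 3 controls, and the 13.8 libraries lay far above the 13.6 libraries. The rise was 2.54-fold with 13.6 (log2 fold change 1.34 ± 0.15, edgeR adjusted p = 6.36e-06) and 12.1-fold with 13.8 (3.60 ± 0.14, edgeR adjusted p = 7.1e-10). The difference of the DsiRNAs was −2.26 ± 0.13 on the log2 scale, 13.6 minus 13.8 (edgeR adjusted p = 1.07e-08).

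IFIT2, which binds RNA rich in A and U and promotes cell death when abundant, rose with both DsiRNAs. Its libraries stood at 4.07, 3.36 and 3.91 CPM with 13.6 and 3.51, 4.57 and 4.25 CPM with 13.8, against 0.952, 0.702 and 0.880 CPM in controls. No knockdown library overlapped the controls, while the libraries of the 2 DsiRNAs overlapped each other. The rise was 4.44-fold with 13.6 (2.15 ± 0.18, edgeR adjusted p = 7.21e-07) and 4.83-fold with 13.8 (2.27 ± 0.18, edgeR adjusted p = 2.54e-07), and the difference of −0.12 ± 0.15 was not called (edgeR adjusted p = 0.508). IFIT2 shares 356 bases (8.68% of its exons) with an annotated RNA gene on the same strand and 65 bases (1.58%) with LIPA on the opposite strand. The strand setting of the counting is not given in the sources used here, so a small share of these reads is uncertain.

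IFIT3, the partner that stabilises IFIT1 and strengthens its hold on RNA, rose several-fold with both DsiRNAs. It measured 38.8, 41.7 and 37.5 CPM with 13.6 and 51.5, 52.2 and 47.9 CPM with 13.8, against 9.07, 11.3 and 9.29 CPM in controls. The 3 groups did not overlap one another. The rise was 3.99-fold with 13.6 (2.00 ± 0.09, edgeR adjusted p = 3.76e-09) and 5.13-fold with 13.8 (2.36 ± 0.09, edgeR adjusted p = 5.36e-10), with a difference of −0.36 ± 0.08 (edgeR adjusted p = 0.00184). IFIT3 and IFIT1 were thus both lower with 13.6 than with 13.8, IFIT1 by the larger difference. Of the 50-base windows of the transcripts, 8.4% in IFIT2, 2.62% in IFIT3 and 1.03% in IFIT1 also stand in another annotated gene, for IFIT1 in IFIT1B among others.

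IFIT5, which binds RNA with a 5′ triphosphate on its own, without the other IFIT proteins, had the smallest rise of the family. Its libraries stood at 30.0, 26.3 and 27.4 CPM with 13.6 and 28.08, 28.95 and 27.21 CPM with 13.8, against 21.9, 20.8 and 21.0 CPM in controls. Even so, no knockdown library overlapped a control. The rise was 1.31-fold with 13.6 (0.39 ± 0.07, edgeR adjusted p = 0.000524) and 1.32-fold with 13.8 (0.40 ± 0.07, edgeR adjusted p = 0.000352). The libraries of the 2 DsiRNAs overlapped (edgeR adjusted p = 0.918). IFIT5 was the 2837th highest of 14731 changes with 13.6 and the 3535th with 13.8, whereas IFIT2 was the 65th and the 180th and IFIT3 the 91st and the 158th. IFIT1B, the remaining family member counted, had 17 reads with 13.6 and 2 with 13.8, against 2 in controls, and was not tested.

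Among the OAS genes, OAS1, the smallest of the enzymes, which makes 2-5A once bound to double-stranded RNA, showed the largest rise with 13.6. It measured 9.77, 11.3 and 9.70 CPM with 13.6 and 6.37, 8.29 and 7.40 CPM with 13.8, against 1.26, 1.30 and 1.61 CPM in controls. All groups were separate, and the 13.6 libraries were the highest. The rise was 7.38-fold with 13.6 (2.88 ± 0.15, edgeR adjusted p = 1.08e-08) and 5.30-fold with 13.8 (2.41 ± 0.15, edgeR adjusted p = 2.87e-08). The level with 13.6 exceeded that with 13.8 by 0.48 ± 0.12 on the log2 scale (edgeR adjusted p = 0.00477). OAS1 shares 92 bases (1.91% of its exons) with an annotated antisense RNA.

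OAS3, the largest enzyme of the family and the one that makes most of the 2-5A in human cells studied so far, went opposite ways with the 2 DsiRNAs. It measured 81.1, 86.1 and 83.3 CPM with 13.6 and 45.6, 44.9 and 41.5 CPM with 13.8, against 54.3, 63.7 and 50.7 CPM in controls. The 13.6 libraries all lay above the controls and the 13.8 libraries all below them. OAS3 rose 1.48-fold with 13.6 (0.57 ± 0.08, edgeR adjusted p = 6.31e-05) and was 0.782 of the control level with 13.8 (−0.35 ± 0.08, edgeR adjusted p = 0.00224). The difference, 13.6 minus 13.8, was 0.93 ± 0.08 (1.90-fold, edgeR adjusted p = 5.03e-07). Over 18 alternative settings of the analysis the change with 13.8 stayed between −0.43 and −0.26, with the highest edgeR, limma or DESeq2 adjusted p at 0.0133. OAS3 and OAS1 are neighbours on chromosome 12 and share no 50-base word with each other in their transcripts.

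OAS2, the enzyme of middle size, was close to the detection limit. It had 4, 3 and 11 reads in the 13.6 libraries and 9, 21 and 9 in the 13.8 libraries, against 9, 3 and 9 in controls. All groups overlapped, and no change was called, with log2 fold changes of −0.30 ± 0.65 with 13.6 and 0.63 ± 0.58 with 13.8. By reads scaled to library totals, the ratio to control was 0.787 with 13.6 (95% exact interval 0.395 to 1.55) and 1.56 with 13.8 (0.898 to 2.8). Such intervals cover counting error only, and the interval with 13.6 holds both no change and the 1.48-fold rise of OAS3.

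OASL, which lacks the synthesis activity and instead carries ubiquitin-like domains that assist the RNA sensor RIG-I, was also low. It had 11, 19 and 19 reads in the 13.6 libraries and 46, 87 and 30 in the 13.8 libraries, against 5, 7 and 12 in controls. The 13.8 libraries lay above all others, and the 13.6 libraries overlapped the controls. The control libraries with 5 and 7 reads lay under the filter's minimum count of 10. OASL thus passed the filter on low counts through its knockdown libraries, so that a difference was in part built into its being tested. OASL rose 5.54-fold with 13.8 (2.47 ± 0.47, edgeR adjusted p = 0.000566), while its value with 13.6 was 0.92 ± 0.52 (edgeR adjusted p = 0.164). The difference of −1.55 ± 0.42 (edgeR adjusted p = 0.00613) rests in part on the second 13.8 library: without it the difference was −1.09 (edgeR adjusted p = 0.0522).

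**Figure D2:**
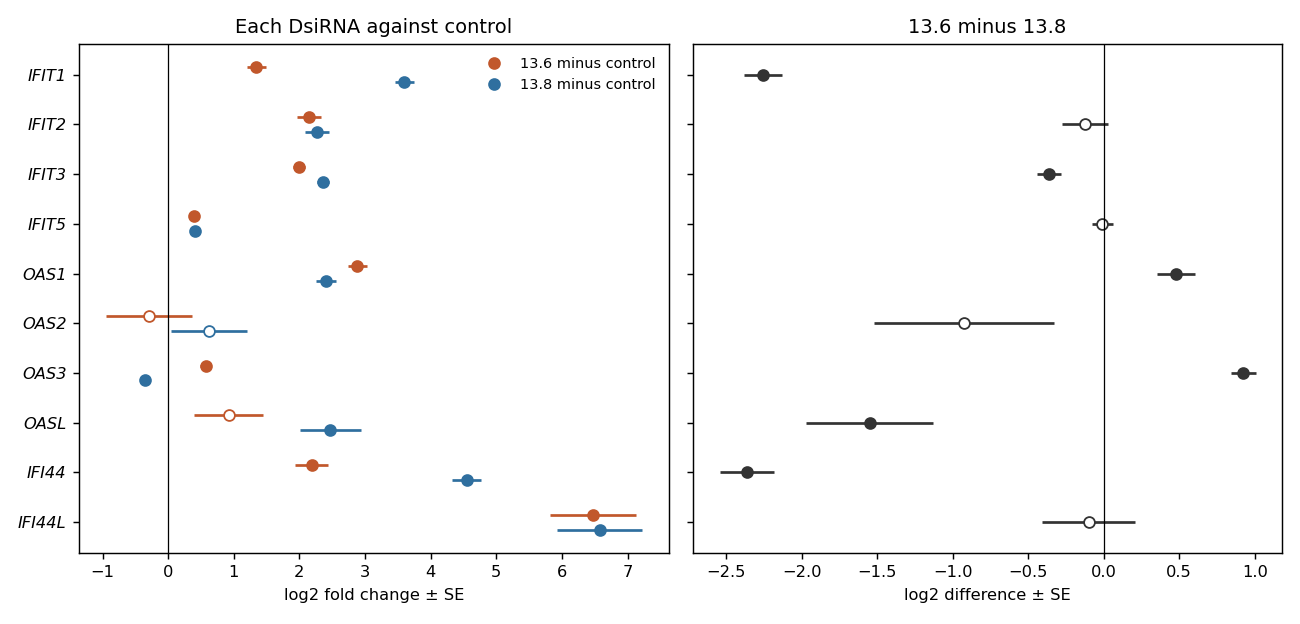
Left, log2 fold change ± SE of each gene with DsiRNA 13.6 and with DsiRNA 13.8 against the same control libraries; right, log2 difference ± SE, 13.6 minus 13.8. Filled points passed an adjusted p of 0.05 and open points did not; OAS3 lies at 0.57 with 13.6 and −0.35 with 13.8, and IFI44L has the 2 largest fitted changes, against controls with 1 read.

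IFI44, an interferon-induced cytoplasmic protein, had the largest rise with 13.8 of the 10 genes after its relative IFI44L. It measured 2.42, 3.25 and 2.99 CPM with 13.6 and 14.6, 14.8 and 15.3 CPM with 13.8, against 0.325, 0.962 and 0.660 CPM in controls. The 3 groups were well apart, and the 13.8 libraries agreed closely with one another. The rise was 4.56-fold with 13.6 (2.19 ± 0.25, edgeR adjusted p = 9.4e-06) and 23.4-fold with 13.8 (4.55 ± 0.22, edgeR adjusted p = 3.95e-09). The difference of −2.36 ± 0.18 (edgeR adjusted p = 1.5e-07) was of the size seen for IFIT1. With 13.8, IFI44 had the 15th highest of 14731 changes and IFIT1 the 32nd, while with 13.6 they were the 61st and the 367th.

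IFI44L, the neighbour and relative of IFI44 on chromosome 1, was close to absent from control cells and present in all knockdown libraries. It had 47, 29 and 50 reads in the 13.6 libraries and 44, 59 and 50 in the 13.8 libraries, against 1, 0 and 0 in the control libraries. It passed the filter on low counts through its knockdown libraries alone, so that a difference was built into its being tested. The level was 0.955 ± 0.286 CPM with 13.6 and 1.02 ± 0.10 CPM with 13.8. With 126 reads with 13.6 and 153 with 13.8 against 1 in controls, the ratio of reads to control was 116 with 13.6 (95% exact interval 20.4 to 4610) and 129 with 13.8 (22.8 to 5130). The fitted log2 fold changes of 6.48 ± 0.65 with 13.6 (edgeR adjusted p = 3.29e-06) and 6.58 ± 0.65 with 13.8 (edgeR adjusted p = 1.73e-06) depend on the prior count of the fit, and without the first control library, which holds the 1 read, they were 8.43 and 8.53. They were the highest with 13.6 and the 2nd highest with 13.8 among 14731 genes. IFI44L did not follow IFI44 in the comparison of the DsiRNAs: its difference was −0.10 ± 0.31 (edgeR adjusted p = 0.795), and the libraries overlapped.

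Set per length, the order of the genes changed with the DsiRNA. Levels here are CPM per kb of the merged exons of annotated protein-coding transcripts (GENCODE v29). With 13.6, IFIT3 was highest (14.9 ± 0.799 CPM per kb), followed by OAS3 (10.6 ± 0.323), IFIT5 (6.95 ± 0.473), OAS1 (2.13 ± 0.188), IFIT1 (1.93 ± 0.216), IFI44 (1.67 ± 0.246) and IFIT2 (0.922 ± 0.0908 CPM per kb). With 13.8, IFIT3 was again highest (19.2 ± 0.869), but IFIT1 (9.21 ± 1.15) and IFI44 (8.63 ± 0.206) came next, above IFIT5 (6.99 ± 0.217) and OAS3 (5.60 ± 0.281 CPM per kb). In controls OAS3 led (7.16 ± 0.858), ahead of IFIT5 (5.29 ± 0.149) and IFIT3 (3.74 ± 0.456), with IFIT1 at 0.763 ± 0.146 and IFI44 at 0.376 ± 0.185 CPM per kb. OASL, OAS2 and IFI44L were the lowest 3 genes in every group. Neighbours whose libraries overlapped, and so cannot be ordered, were OAS1 and IFIT1, IFIT1 and IFI44, and IFI44L and OASL with 13.6, IFIT1 and IFI44, and OASL and IFI44L with 13.8, and IFI44 and OAS1, and OASL and OAS2 in controls. Per kb of coding length in place of exons, IFIT5, OAS3 and IFI44 took the 3rd, 4th and 5th place with 13.8. The overlap of OAS1 and IFIT1 with 13.6 also depends on the length used. Per kb of the longest transcript they stood at 4.24 ± 0.374 and 1.93 ± 0.216.

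**Figure D3:**
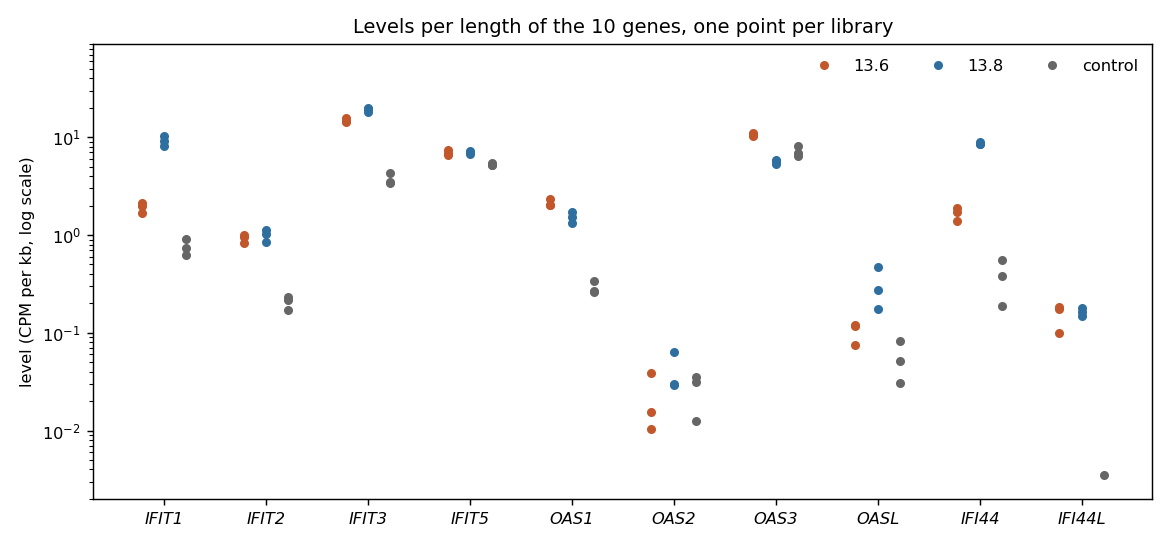
Level of each gene in CPM per kb of exons of protein-coding transcripts (vertical axis, log scale), with 1 point per library for the 13.6, 13.8 and control groups. IFIT3 is highest with both DsiRNAs and OAS3 in controls; the 2 control libraries with 0 IFI44L reads cannot be drawn on a log axis.

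Added up, the 10 genes gave 175, 182 and 176 CPM in the 13.6 libraries and 189, 205 and 187 CPM in the 13.8 libraries, against 91.1, 103 and 88.1 CPM in controls. The sums of all 6 knockdown libraries lay above those of the controls, with OAS3 higher with 13.6 and IFIT1, IFIT3 and IFI44 higher with 13.8. Replicate libraries spread least for IFI44 with 13.8 (coefficient of variation 2.38%) and IFIT5 in controls (2.82%). They spread most for the genes with few reads, with 70.2% for OAS2 with 13.6 and 173% for IFI44L in controls, which had 1 read. Across the 9 libraries, 8 of the genes had correlations of 0.79 to 0.973 with the mean of the other 9 on a standardised log2 scale, while OAS2 had 0.186 and OAS3 −0.165. These values describe 9 libraries that share 3 groups.

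The rest of the interferon pathway was measured to see which of its layers moved in the same cells. The ligands were almost absent: of 21 interferon genes in the table, 0 were tested, and together they had 47 reads in all 9 libraries. IFNB1, the interferon that most cells make first, had 0 reads in every library, and IFNA14 had 18 reads with 13.6 and 0 with 13.8, against 11 in controls. Of the 8 receptors and kinases tested, 4 rose and 2 fell with 13.6, and 4 rose and 0 fell with 13.8, with median log2 fold changes of 0.22 and 0.24. Over all genes tested, 24.9% rose and 25% fell with 13.6 and 27.5% rose and 27.9% fell with 13.8, with medians near 0. IFNAR1, a chain of the receptor for type I interferon, rose by 1.16 ± 0.07 with 13.6 and 1.18 ± 0.07 with 13.8, and the kinase JAK2 by 0.96 ± 0.11 and 0.47 ± 0.11. The kinases JAK1 and TYK2, which serve that receptor, fell by 0.51 and 0.40 with 13.6 and were not called with 13.8.

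Among the transcription factors, IRF9, a DNA-binding part of the complex that interferon activates, was at 60.7 ± 3.26 CPM with 13.6 and 61.6 ± 3.63 CPM with 13.8, against 24.5 ± 3.93 CPM in controls (1.31 ± 0.10 and 1.33 ± 0.10 on the log2 scale, edgeR adjusted p = 2.85e-07 and 1.52e-07). STAT2 fell by 0.54 with 13.6 (edgeR adjusted p = 4.1e-05) and had −0.16 ± 0.07 with 13.8, which was not called. IRF7, which amplifies interferon production, rose by 0.69 ± 0.10 with 13.6 and 0.81 ± 0.10 with 13.8. IRF3 fell with 13.6 (−0.71 ± 0.13, edgeR adjusted p = 0.00061) and was not called with 13.8 (−0.21 ± 0.13). IRF1 rose by 0.57 ± 0.16 with 13.6 and was not called with 13.8 (0.08 ± 0.17). The factors thus did not move as one.

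Of the 12 sensors of double-stranded RNA and their relays that were tested, 8 rose and 2 fell with 13.6, and 6 rose and 3 fell with 13.8, with medians of 0.37 and 0.18. The shares that rose, over all genes tested, were 24.9% with 13.6 and 27.5% with 13.8, and those that fell were 25% and 27.9%. DDX58, which encodes RIG-I, rose by 1.47 ± 0.11 with 13.6 and 1.60 ± 0.11 with 13.8, IFIH1, which encodes the sensor MDA5, by 0.67 ± 0.11 and 0.82 ± 0.11, and the endosomal receptor TLR3 by 1.26 ± 0.18 and 1.18 ± 0.18. ADAR, which edits double-stranded RNA and so shields it from these sensors, rose by 0.29 ± 0.09 with 13.6 and fell by 0.53 with 13.8. The relay kinase TBK1 moved likewise, 0.26 ± 0.06 with 13.6 and −0.43 ± 0.06 with 13.8. ADAR and TBK1 thus share the pattern of OAS3, up with 13.6 and down with 13.8. So do the transcription factor IRF2 (0.30 ± 0.08 and −0.20 ± 0.08) and the melanocyte marker SOX10 (0.32 ± 0.07 and −0.35 ± 0.07). The share of all genes with this pattern was not counted.

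Downstream of the OAS enzymes, PDE12, which degrades 2-5A, had 0.01 ± 0.07 with 13.6 and fell by 0.57 with 13.8 (edgeR adjusted p = 7.88e-06). The genes of this layer did not move as one. ABCE1 rose by 0.47 ± 0.05 with 13.6 and 0.31 ± 0.05 with 13.8. CNP fell with 13.6 (−0.35 ± 0.06) and was not called with 13.8 (0.12 ± 0.06). Of the 6 tested genes of negative feedback, 2 rose and 2 fell with each DsiRNA, with medians of −0.08 with 13.6 and 0.30 with 13.8. These counts are near the shares over all genes, of which 24.9% rose and 25% fell with 13.6, and 27.5% and 27.9% with 13.8. ISG15, a ubiquitin-like protein that interferon induces, rose by 1.56 ± 0.18 with 13.6 and 1.75 ± 0.18 with 13.8, and USP18, which removes it and dampens the receptor, by 0.38 ± 0.09 and 0.77 ± 0.09. SOCS3, a brake on JAK kinases, fell by 0.68 with 13.6 and by 1.47 with 13.8.

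**Figure D4:**
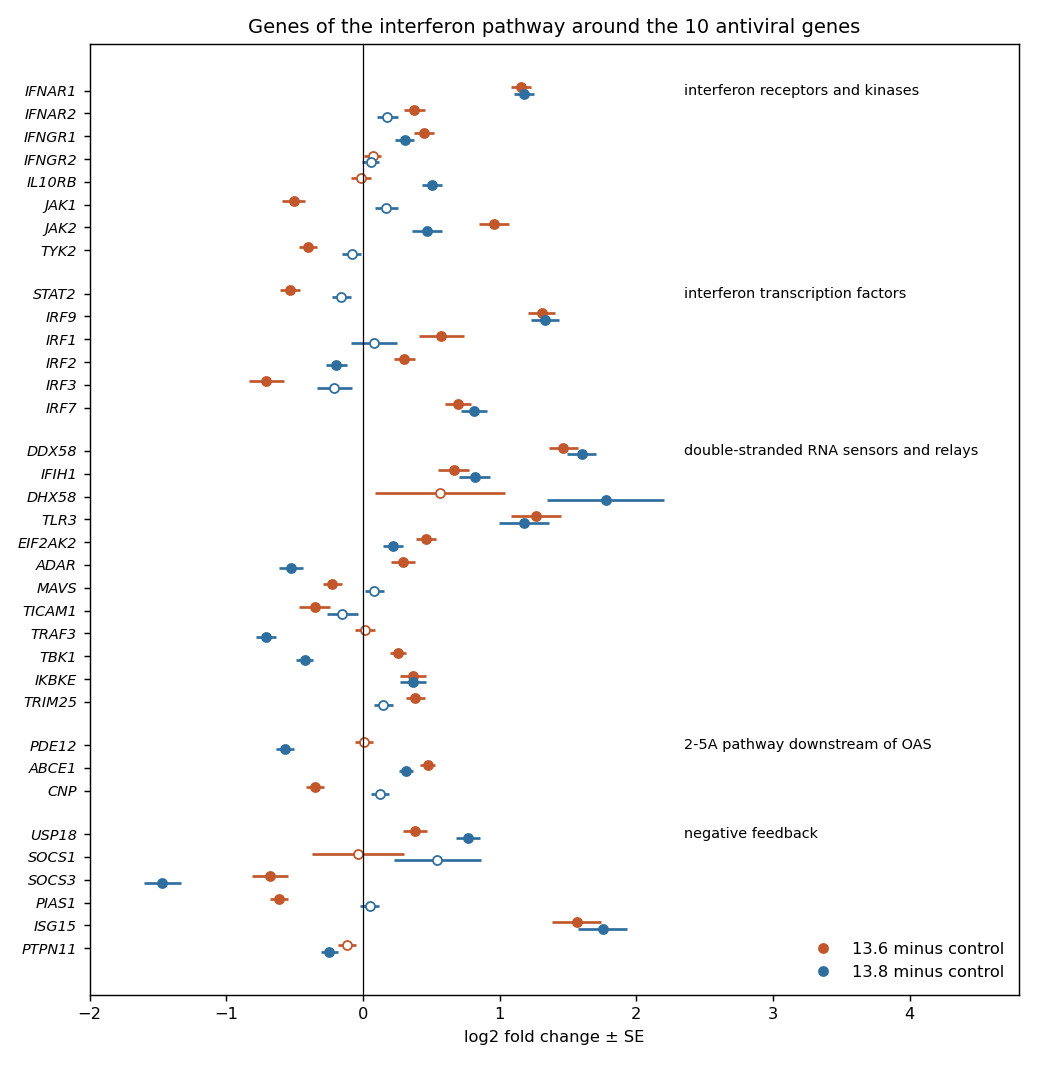
Log2 fold change ± SE against control of genes of 5 interferon pathway lists, with DsiRNA 13.6 and with DsiRNA 13.8; filled points passed an adjusted p of 0.05 and open points did not. IFNAR1, IRF9, DDX58, TLR3 and ISG15 lie to the right of 0 with both DsiRNAs, and ADAR, TBK1 and IRF2 lie on opposite sides of it.

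Outside the 10 genes, those whose levels followed them most closely were sought among the 12537 other tested genes that averaged 1 CPM or more. This pool includes the genes of the lists above, and 661 of its genes were skipped by name when the 8 highest were picked. The measure was Pearson's r over the 9 libraries with the mean standardised log2 CPM of the 10 genes, a description of libraries that share 3 groups. The 8 highest were TPST2 (0.9906), LIX1L (0.9892), RSL24D1 (0.9892), AUH (0.9872), NCK1 (0.9872), ATP5F1 (0.9871), MORF4L1 (0.9869) and TMEM43 (0.9867). The names depend on the measure: by Spearman's rho only 1 of these 8 was again among the 8 highest. TPST2 was at 20.6 ± 1.23 CPM with 13.6 and 22.6 ± 0.560 CPM with 13.8, against 14.2 ± 0.641 CPM in controls. RSL24D1 was at 285 ± 8.30 CPM with 13.6 and 350 ± 21.7 CPM with 13.8, against 112 ± 14.1 CPM in controls. An r of at least 0.95 was reached by 207 genes (1.65%), so a pattern of this shape is shared by many genes.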

How the data were processed

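RNA-seq was made from 9 libraries of 501mel cells with a directional library kit, per the labels' protocols. The build hg19 and the tools STAR, HTSeq, cutadapt, FastQC and DESeq2 are named in the submitters' processing notes. For versions, gene annotation and strand setting, the sources used here give nothing. The raw counts deposited by the authors are whole reads per gene symbol. The authors' second deposited table holds log2 values of scaled counts. It gave back the reads of the 10 genes within 1.38e-05 of a read, and it was not tested. Of 25398 entries, 16 that repeat both a symbol and its counts in all 9 libraries were left out. The 28 names that a spreadsheet had turned into dates were kept in the totals and not named.

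The analysis of the counts used edgeR 4.0.16 under R 4.3.3: filterByExpr (minimum count 10), TMM scaling, and a robust quasi-likelihood fit to all 9 libraries with 1 mean per group and 6 residual degrees of freedom. Tests were two-sided, with Benjamini-Hochberg adjustment over the 14731 genes tested, which hold 99.97% of the reads. The script was tested on simulated data. Replicate libraries correlated at 0.9905 to 0.9949 and differed by more than counting error (chi-square per degree of freedom 4.98 to 43.1). The labels call the replicates biological without saying whether cultures were separate, so p-values measure the spread between these libraries, which may be technical. Named are the 10 genes, TBX3, genes of the context lists, and the 8 genes most alike by r, with clone, antisense and pseudogene names skipped; some genes of the context lists are not reported here. The genes, lists and tests were chosen with earlier results of these data known. Alternatives were limma-voom (limma 3.58.1), DESeq2 1.42.0, other scalings and filters, a threshold of 0.01, a fit of the compared groups alone, a replicate block, and leaving out each library. Lengths and overlaps come from GENCODE v29, and promoters from RefSeq GRCh38.p14. No coordinates were converted between builds.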

Additional observations from a re-analysis of the deposited data

Results flagged for a closer look

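The 6 results that differed between the DsiRNAs, by the test of the difference itself, are log2 differences of 13.6 minus 13.8. IFIT1 differed by −2.26, IFI44 by −2.36, OASL by −1.55 and IFIT3 by −0.36, all lower with 13.6 in 3 of 3 libraries. OAS1 differed by 0.48 and OAS3 by 0.93, both higher with 13.6 in 3 of 3 libraries. These 6 stand beside 61.1% of all tested genes that differed between the DsiRNAs. OAS3 was the only 1 of the 10 genes to be called in opposite directions against control.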

How the results depend on the processing

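Of 528 single-gene alternatives, 521 kept the direction and the side of the threshold. Part of this agreement was built in. The threshold of 0.01 reuses the main fit, so no direction could change. Leaving out a library of the group not compared hardly moves the estimate. Among the 10 genes, 8 were called with 13.6, 9 with 13.8 and 6 between the DsiRNAs under every setting run, except that a minimum mean of 50 reads gave 7, 7 and 5, since it drops the low genes from the test, and leaving out the second 13.8 library gave 5 between the DsiRNAs, with OASL at −1.09 (adjusted p = 0.0522). Changes of sign were seen in values that were never called: OAS2 with 13.6 against control ran from −1.03 to 0.047 over the leave-one-out fits, IFIT5 between the DsiRNAs from −0.061 to 0.036, and to 0.0094 with no filter, and IFI44L between the DsiRNAs from −0.24 to 0.14, and the cause was not tested. With a replicate block in the fit, 8, 9 and 6 of the genes were called, as without it, and 8010, 8803 and 9581 of all genes. The replicate numbers are not stated to pair the libraries: same-numbered libraries had correlations of −0.179 to 0.187, and not every library correlated best with its own number. With Spearman's rho in place of Pearson's r, 1 of the 8 genes most like the 10 was shared. With library totals in place of TMM, the median over all genes moved to −0.0461 with 13.6 and 0.0205 with 13.8. Depth limits OAS2 and OASL, and IFI44L in controls.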
